A study of Mus musculus with 4 samples.

Results

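Macrophages of the fetal kidney were taken as the cell barcodes in which at most 10% of the UMIs came from mitochondrial genes and at least 3 UMIs fell on C1qa, C1qb, C1qc, Csf1r, Tyrobp and Fcer1g together, with at least 1 of these UMIs on C1qa, C1qb, C1qc or Csf1r. UMIs are the molecular tags counted per gene and barcode. Of 12399 barcodes within the mitochondrial limit, from 15144 in all, 175 met this rule, and their values for the 6 selecting genes are therefore a description and carry no test. The barcodes came from mouse kidneys at E14.5, profiled by Drop-seq, a droplet method that reads the 3' ends of transcripts from single cells. Of the 4 libraries, 2 were labelled mutant, with the genotype -/- for Hoxd9, Hoxd10, Hoxd11, Hoxa9, Hoxa10 and Hoxa11, and 2 were labelled wildtype. All 4 were labelled with the same mixed strain background, mostly CD-1 and 129. The title of the series asks about lineage infidelity when the function of these Abd-B class genes, position regulators of the hind end of the embryo, is reduced. The labels do not say how many embryos a library holds or whether the libraries came from separate litters. A p-value for a gene here thus rests on library-to-library spread, part of which may be technical. That spread was estimated mostly over all genes together. A small p-value therefore does not show that the libraries were alike for that gene.

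Macrophages enter the embryo's organs from the yolk sac and later from monocytes of the fetal liver, and they survive there on signals through the CSF1 receptor, which Csf1r encodes. They engulf dying cells and debris and break them down in lysosomes, they take up haem and iron, and they are a main source of C1q, the protein built from the chains of C1qa, C1qb and C1qc that opens the classical complement pathway and tags material for uptake. Tyrobp and Fcer1g encode membrane adaptors that pass on signals from Fc receptors and lectin-like receptors.

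Mutant 1 held 18 macrophage barcodes and mutant 2 held 64, against 30 in wildtype 1 and 63 in wildtype 2. Their summed depth was 49262 and 201754 UMIs in the mutant libraries, against 111580 and 206042 UMIs in the wildtype libraries, so mutant 1 gave the least precise levels. A macrophage barcode had between 675 and 14910 UMIs, with a median of 2370, and between 506 and 4540 genes. All the libraries' barcodes had been deposited with at least 500 genes each. Between the libraries 3 barcode sequences were shared, all with mutant 2. In wildtype 2 haemoglobin RNA was widespread, and 1 macrophage barcode there had 43.1% of its UMIs on haemoglobin genes.

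The 6 selecting genes were seen together. Fcer1g was detected in 88.0% of the 175 barcodes, Tyrobp in 86.3%, C1qb in 84.6%, C1qc in 82.3%, and C1qa and Csf1r in 68.0% each. All 6 were detected in 71 barcodes, 5 in 44 and 4 in 22, while 25 had 3 of them and 13 had 2. A barcode's UMIs over the 6 genes had a median of 15 and reached 217. Near the threshold, 10 of the 16 barcodes with exactly 3 such UMIs and 12 of the 16 with 4 were members, and 31 barcodes with 2 and 224 with 1 stayed outside. In the 22 members with 3 or 4 selecting UMIs the genes of a macrophage identity list, without Csf1r, summed to 1921 CPM. CPM here are the genes' UMIs per 1000000 UMIs of the summed barcodes. The sum was 443 CPM in the 31 barcodes with 2 and 9301 CPM over all members. Those 31 barcodes held 349543 UMIs in all against 73409 UMIs in the 22. Their median depth was only 2176 UMIs for the 11 in mutant 2 and 1094 UMIs for the 15 in wildtype 2. Deep barcodes thus weigh most in their summed CPM. An identity UMI was seen in 80.6% of the 31 and in 90.9% of the 22. It was also common outside the members. In other barcodes thinned to 2000 UMIs it was seen in 65.9% and 40.8% in mutant and 41.4% and 39.2% in wildtype libraries. A single identity UMI therefore does not mark a macrophage. A further 22 barcodes had 3 or more UMIs on Tyrobp and Fcer1g but none on C1q or Csf1r, and several of their leading genes came from a few of them. Pf4 was seen in 4 of the 22 and Ppbp in 2, the mast cell and basophil genes Cpa3 and Mcpt8 in 4 and 3, and the neutrophil genes Retnlg and S100a9 in 1 each, whereas Lyz2 was seen in 11. Another 9 barcodes met the rule on UMIs but exceeded the mitochondrial limit, 7 of them in mutant 2 and 2 in wildtype 1.

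**Figure D1:**
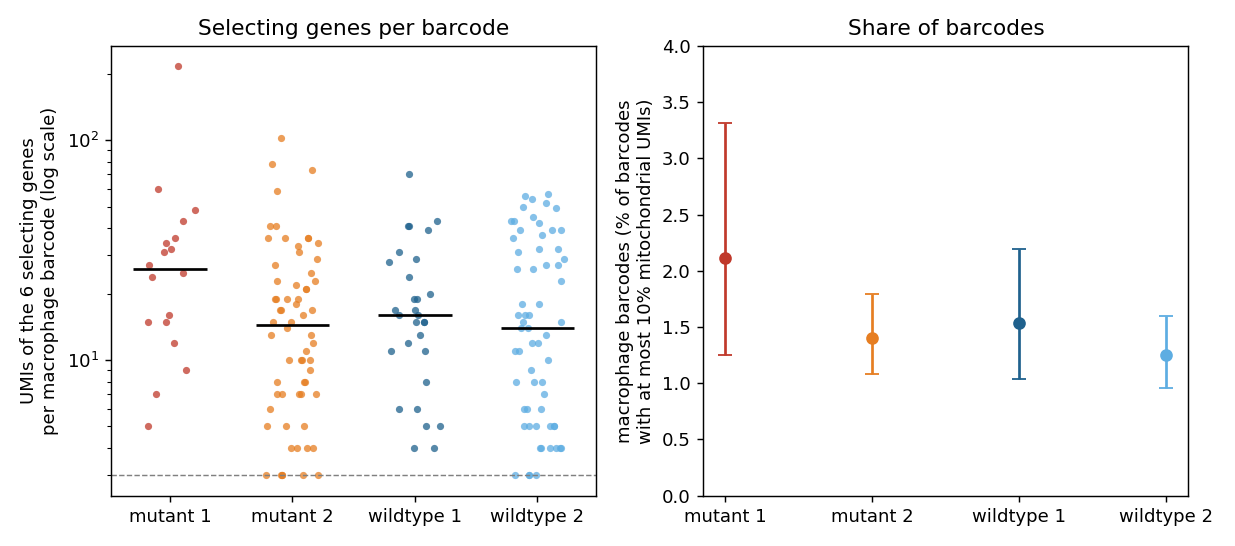
Left, UMIs over the 6 selecting genes in each macrophage barcode (log scale, points spread sideways for clarity), with the library median as a bar and the threshold of 3 as a dashed line. Right, macrophage barcodes as a percentage of barcodes within the mitochondrial limit, with exact 95% Clopper-Pearson intervals. The median is highest in mutant 1, at 26, and all 4 intervals overlap.

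The C1q chains gave 1854 UMIs in members, of which C1qa took 25.7%, C1qb 38.8% and C1qc 35.5%. Outside the members the 3 chains gave 106 UMIs in 12224 barcodes, split 26.4%, 42.5% and 31.1%. Any UMI of C1qa, C1qb, C1qc or Csf1r was found in 1.19% of barcodes outside the members and in 0.971% of 824 endothelial barcodes, a class that should lack these genes. Barcodes with 3 or more selecting UMIs, at least 1 of them on these genes, had already been taken out as members. The shares are therefore capped by the rule, and how far they measure background was not tested. Median depths were 3857 to 4616 UMIs per endothelial barcode against 2220 to 2604 UMIs per macrophage barcode. C1qa had 2659 and 689 CPM in mutant macrophages against 403 and 786 CPM in wildtype macrophages. In mutant 1 a single barcode with 8984 UMIs held 69 of the 131 C1qa UMIs and 25 of the 56 Csf1r UMIs, so the levels of that library lean on it. C1qb had 2050 and 1185 CPM in mutant macrophages against 1129 and 1228 CPM in wildtype macrophages. C1qc had 2375 and 1100 CPM in mutant macrophages, against 887 and 1068 CPM in wildtype macrophages, and Csf1r had 1137 and 629 CPM against 475 and 364 CPM. Csf1r and C1qc did not overlap between the genotypes, and C1qa, C1qb, Tyrobp and Fcer1g did. Of 2936 genes tested within macrophages, 17.4% did not overlap on the higher side and 18.0% on the lower side.

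C1qa, C1qb and C1qc lie side by side on chromosome 4 of mm10, at chr4:136895917-136898803, chr4:136880129-136886187 and chr4:136889804-136893065 on the minus strand. The 250 bases before RefSeq's start of 5 macrophage genes are shown because they belong to genes that mark the members, 2 by the rule and 3 by their levels. The gene positions above are GENCODE M21's, and RefSeq's start of C1qc lies inside that span, so its window overlaps the span. RefSeq's promoter table (GRCm38.p6) was searched on both strands for GAGGAA, the core letters recognised by PU.1, the factor that Spi1 encodes, and for the longer GAGGAAGT, which contains it. Sequences run 5′ to 3′ along each gene's strand, and capitals mark GAGGAA or its reverse complement TTCCTC.
C1qb, chr4:136886201-136886450, minus strand: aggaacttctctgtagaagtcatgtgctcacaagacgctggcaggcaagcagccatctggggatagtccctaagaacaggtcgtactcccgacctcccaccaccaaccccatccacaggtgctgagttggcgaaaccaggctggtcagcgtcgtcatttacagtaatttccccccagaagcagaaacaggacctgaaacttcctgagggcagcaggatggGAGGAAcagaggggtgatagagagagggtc
C1qc, chr4:136892915-136893164, minus strand: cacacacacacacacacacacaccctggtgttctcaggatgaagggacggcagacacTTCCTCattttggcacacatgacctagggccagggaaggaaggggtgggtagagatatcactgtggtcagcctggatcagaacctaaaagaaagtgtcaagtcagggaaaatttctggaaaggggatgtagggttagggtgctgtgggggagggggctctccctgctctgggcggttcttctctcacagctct
Mrc1, chr2:14229164-14229413, plus strand: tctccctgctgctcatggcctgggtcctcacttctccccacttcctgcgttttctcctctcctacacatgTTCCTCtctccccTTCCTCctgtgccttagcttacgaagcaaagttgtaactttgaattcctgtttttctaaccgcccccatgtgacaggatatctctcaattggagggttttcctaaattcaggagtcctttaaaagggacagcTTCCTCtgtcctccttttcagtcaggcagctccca
Fcgr1, chr3:96293970-96294219, minus strand: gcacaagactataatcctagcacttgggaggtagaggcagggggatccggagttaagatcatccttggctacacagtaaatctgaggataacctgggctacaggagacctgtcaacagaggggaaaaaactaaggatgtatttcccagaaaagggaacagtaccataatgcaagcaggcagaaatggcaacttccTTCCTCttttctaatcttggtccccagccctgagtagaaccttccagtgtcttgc
Cx3cr1, chr9:120068297-120068546, minus strand: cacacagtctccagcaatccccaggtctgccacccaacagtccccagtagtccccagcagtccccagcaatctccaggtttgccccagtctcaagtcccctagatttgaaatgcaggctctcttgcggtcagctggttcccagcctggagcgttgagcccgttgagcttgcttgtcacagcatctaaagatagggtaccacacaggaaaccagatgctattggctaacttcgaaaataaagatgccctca
Mrc1 held 3 matches, C1qb, C1qc and Fcgr1 held 1 each, and Cx3cr1 held none. The window of Fcer1g, also a selecting gene, is not shown and held none. Over windows of 300 bases that run 50 bases past the start, 11 of the 19 matched promoters of the selecting genes and of the 20 genes named by fold below held GAGGAA, or 57.9%, against 31.3% of 27025 genes in the table and 30.2% of the 7828 genes that were tested and matched. GAGGAAGT was in 2 of 19, or 10.5%, against 3.69% of all 27025. The other 7 of these 26 genes, C1qa, Csf1r, Tyrobp, Clec4n, Ccl24, Lilrb4 and Ms4a6d, were not matched. A match describes letters in a window and shows no binding.

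Beyond the selecting genes, macrophage barcodes carried a broad myeloid programme. Counts were summed per library over macrophage barcodes and over all other barcodes and compared with edgeR's quasi-likelihood test with library as a term. Of 10702 genes tested, 1111 were higher (10.4%) and 1436 lower (13.4%), 23.8% in all, in macrophage barcodes at an adjusted p below 0.05 (Benjamini-Hochberg). The 20 genes that led by log2 fold change, counting only genes past the test that averaged 100 CPM or more in macrophages and were higher in all 4 libraries, were Ccl12, Clec4n, Ccl24, Fcrls, Cx3cr1, Ms4a6c, Ctss, Ms4a6b, Mrc1, Gpr65, Ly86, C5ar1, Fcgr1, Lilrb4, C3ar1, Ccr1, Ms4a6d, Ms4a7, Clec4a3 and Clec4a2, with log2 fold changes between 11.32 and 8.98. Without wildtype 2 the number lower was 899. Because the barcodes were chosen by macrophage genes, higher levels of genes that macrophages are known to express describe the class and are not independent evidence for it. The list counts that follow stand beside these shares of 10.4% higher and 13.4% lower. Most are given per listed gene, tested or not.

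Cx3cr1, the fractalkine receptor of tissue macrophages and monocytes, had 1441 and 724 CPM in mutant and 1066 and 675 CPM in wildtype macrophages, against 0.42 to 3.37 CPM in the other barcodes of the 4 libraries. Its log2 fold change was 9.65 (SE 0.32, edgeR adjusted p = 1.71e-195). Mrc1, the mannose receptor, had 2497 and 1160 CPM in mutant and 1954 and 844 CPM in wildtype macrophages, against 0.623 to 3.93 CPM elsewhere. Macrophages and other barcodes were far apart in every library for both genes. Fcgr1, a high-affinity receptor for IgG, was even across the libraries, at 284 and 283 CPM in mutant and 323 and 320 CPM in wildtype macrophages, against 0.307 to 0.673 CPM in other barcodes. Of 19 genes in the macrophage identity list that were not in the rule, 18 were higher and none lower. The exception was Itgam, which encodes the CD11b integrin chain, with mean levels of 210 CPM in macrophages, 181 CPM in all other barcodes and 206 CPM in endothelial barcodes (log2 fold change against other barcodes 0.35, SE 0.25, edgeR adjusted p = 0.327).

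**Figure D2:**
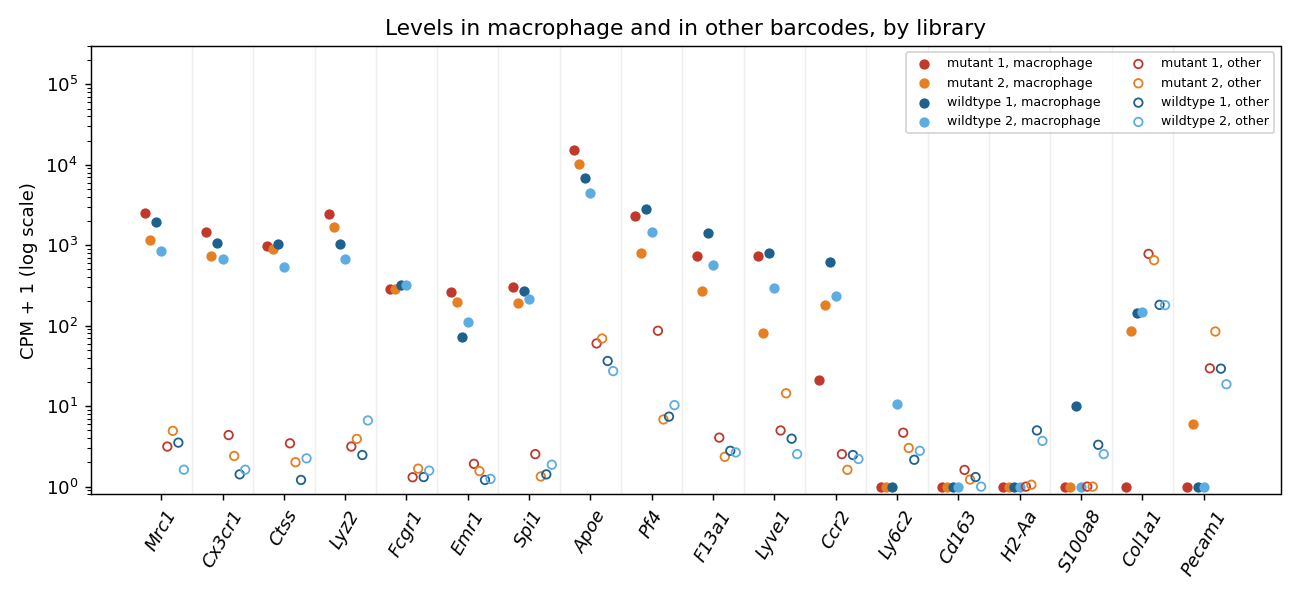
CPM plus 1 (log scale) of 18 genes in each library, in macrophage barcodes (filled) and in all other barcodes (open). Mrc1, Cx3cr1, Ctss, Lyz2, Fcgr1, Emr1, Spi1 and Apoe lie far above the other barcodes in all 4 libraries, Cd163 and H2-Aa are at 0 in macrophages, and Col1a1 lies lower in macrophages.

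Receptors that bind antibody, lectin ligands and complement were among the genes higher in macrophage barcodes. Of 13 activating receptors and adaptors outside the rule, 11 were tested and all 11 were higher. Fcgr3, a low-affinity IgG receptor that signals through the adaptor of Fcer1g, had 507 and 312 CPM in mutant and 394 and 379 CPM in wildtype macrophages, against a mean of 1.08 CPM in other barcodes. Clec4n, the lectin Dectin-2, and Trem2, which pair with these adaptors, had log2 fold changes of 10.45 and 8.36. Of 9 complement genes outside the rule, 4 of the 5 tested were higher, among them the receptors C3ar1 and C5ar1, by 9.13 and 9.21 on the log2 scale, and Cfp, properdin, by 4.27. C3, the central component, had 2 UMIs over the 175 barcodes, as did C1ra and C1s, the proteases that act with C1q. On the CSF1 axis the ligand Csf1 had 1 UMI in macrophages and the second ligand, Il34, had none. Csf2ra and Csf3r, receptors for related growth factors, were higher by 2.21 and 5.60.

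Factors that specify macrophages were among the genes higher in macrophage barcodes. Spi1 had 304 and 188 CPM in mutant and 269 and 214 CPM in wildtype macrophages, against 0.337 to 1.53 CPM in other barcodes (log2 fold change 8.44, SE 0.37, edgeR adjusted p = 2.74e-113). Irf8, a partner of PU.1, Runx1 and Ikzf1, factors of blood cell development, and Maf and Mef2c were also higher, with log2 fold changes of 5.69, 4.73, 6.25, 3.89 and 3.10. In all, 10 of 19 listed factors were higher, 3 were lower and 14 were tested. Id3 and Sall1 were among the lower ones. Sall1, which in mouse marks microglia and also nephron progenitors, had 2 UMIs over all macrophage barcodes.

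Genes known from resident macrophages and microglia were mixed. Of 14 yolk sac and resident macrophage genes 9 were tested and 8 were higher, the exception being Lyve1 (log2 fold change 6.43, SE 1.38, edgeR adjusted p = 0.0704). Timd4, a receptor for dying cells in many resident macrophages, had 7 UMIs, and Folr2, a folate receptor, was higher by 6.48 on the log2 scale. Of 11 microglia-type genes 6 were higher and 3 lower. P2ry12, a purinergic receptor, had 122 and 64.4 CPM in mutant and 17.9 and 34.0 CPM in wildtype macrophages, against a mean of 0.406 CPM in other barcodes. Fcrls, Gpr34 and Siglech were higher by 9.88, 7.13 and 6.27, and Cst3, which other cells share, by 2.72. Tmem119 had 5 UMIs and did not pass (log2 fold change -0.84, edgeR adjusted p = 0.432), and Sall1, Olfml3 and Sparc were lower. Of 11 monocyte genes 2 were higher, Ccr2 by 7.94 and Ifitm3 by 2.04, and 2 were lower, Fn1 and Lsp1. Over all genes tested 10.4% were higher and 13.4% lower, so these counts say little about the list.

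Lysosomal and clearance genes followed. Of 27 lysosomal genes 21 were higher, none was lower and 25 were tested. Ctss, the protease cathepsin S, had a log2 fold change of 9.55, Ctsc of 5.88, Lgmn, the protease legumain, of 4.51, and Ctsb of 4.49. Among receptors for dying cells and modified lipids, Stab1 had 1624 and 694 CPM in mutant and 735 and 393 CPM in wildtype macrophages, against a mean of 8.46 CPM in other barcodes. Cd36 and Msr1, both scavenger receptors, had log2 fold changes of 5.25 and 8.35. Of 18 genes for the clearance of dying cells 10 were higher and 2 lower, and of 12 scavenger receptor genes 7 were higher and none lower. Marco was at 0 in all 4 macrophage sums. Haem and iron genes were higher for 12 of 17, none lower: Trf, transferrin, by 7.26 on the log2 scale, Slc11a1, an iron transporter of phagosomes, by 7.85, Hmox1, which opens the haem ring, by 5.18, and Slc40a1, the iron exporter ferroportin, by 3.98. The ferritin chains Fth1 and Ftl1 had log2 fold changes of 2.24 and 2.48. Of 16 lipid handling genes 10 were higher and 1 lower. Apoe, a lipid carrier, had 15407 and 10215 CPM in mutant and 6865 and 4518 CPM in wildtype macrophages, against a mean of 47.3 CPM in other barcodes, while Fabp4, which endothelial cells express, was lower (log2 fold change -3.87, edgeR adjusted p = 1.51e-16).

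Signalling genes were mostly chemokines and their receptors. Of 15 chemokine genes 9 were higher and 1 lower, and of 16 chemokine and purinergic receptor genes 12 were higher and none lower. Ccl12, a ligand of Ccr2, had 710 and 149 CPM in mutant and 296 and 204 CPM in wildtype macrophages, against a mean of 0.119 CPM in other barcodes, the largest fold change among the named genes. Ccl24 had 548 and 149 CPM in mutant and 493 and 277 CPM in wildtype macrophages. Inflammatory cytokine RNA was scarce. Il1b had 4 UMIs, Tnf 5 UMIs and Il10 none over the 175 barcodes. Of 18 toll-like receptor and inflammasome genes 8 were higher, among them Pycard, Casp1 and Cd14, with log2 fold changes of 3.65, 7.34 and 6.57. Of 25 cytokine and growth factor genes 6 were higher and 4 lower. Grn, progranulin, Tgfb1, Il18 and Igf1 were higher, by 3.49, 3.78, 5.90 and 1.82 on the log2 scale, and the growth factors Igf2, Vegfa, Pdgfa and Pdgfc were lower. Of 19 matrix remodelling genes 2 were higher, F13a1 and Plau, a plasminogen activator, and 8 were lower, among them Mmp2, Mmp14, Timp3 and Fn1. Over all genes tested 10.4% were higher and 13.4% lower, so the number higher here was near that share. Of 18 interferon response genes 4 were higher, Isg15, Ifi27l2a, Ifi204 and Bst2. Of 17 immediate early genes 11 were higher, 8 by DESeq2 and 7 without wildtype 1, with Fos by 3.72 on the log2 scale.

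The class carried antigen-presenting machinery for MHC class I but little for class II. Of 10 MHC class I genes 7 were higher, and B2m, the light chain, had 2355 and 1641 CPM in mutant and 1667 and 1640 CPM in wildtype macrophages, against a mean of 173 CPM in other barcodes (log2 fold change 3.37, SE 0.24, edgeR adjusted p = 1.78e-44). Of 7 MHC class II genes none passed and 1 was tested. H2-Aa, H2-Eb1 and Ciita had no UMI over the 175 barcodes, which allows a share of up to 1.71% of barcodes with a UMI, and H2-Ab1 and H2-DMb1 had 1 each. Cd74, the invariant chain, was seen in 8 of 175 barcodes, or 4.57%, against 0.475% of other barcodes. Cd163 and Vsig4, genes of some adult tissue macrophages, had no UMI in members.

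**Figure D3:**
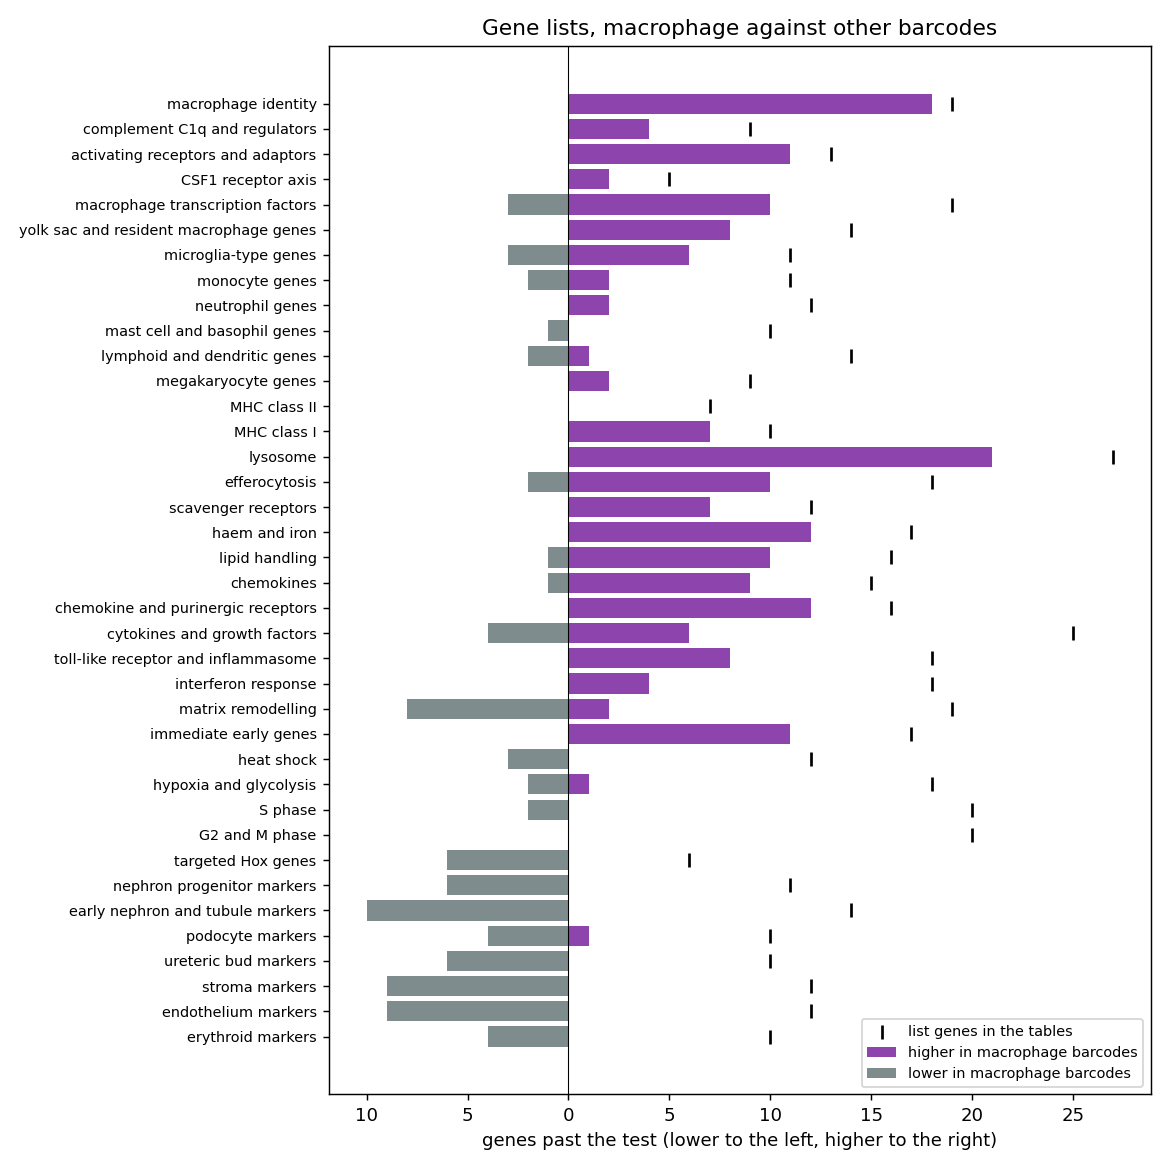
Number of list genes past the test in macrophage barcodes against all other barcodes, higher to the right and lower to the left, with a tick at the number of list genes in the tables. Macrophage identity (18 of 19), lysosome (21 of 27) and haem and iron (12 of 17) lie to the right, and the kidney lineage and endothelium lists lie mostly to the left.

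Most markers of kidney lineages were lower in the members than in other barcodes. In the stroma list 9 of 12 genes were lower and in the early nephron and tubule list 10 of 14, with none higher in either. The 22 members with 3 or 4 selecting UMIs stood apart, with 2602 CPM for the stroma list against 1921 CPM for the identity list. They held 191 of the 364 stroma UMIs of all members, 34 of the 62 nephron progenitor UMIs and 60 of the 78 early nephron and tubule UMIs. Erythroid markers summed to 7935 CPM over all members and to 20816 CPM in those of wildtype 2. All 6 targeted Hox genes, which stroma and nephron lineages express, were lower, with 2 to 12 UMIs each over the 175 barcodes. Hoxa9 had 0 and 19.8 CPM in mutant and 17.9 and 19.4 CPM in wildtype macrophages, against 142 and 164 CPM in mutant and 130 and 127 CPM in wildtype other barcodes (log2 fold change of macrophage over other barcodes -2.96, SE 0.42, edgeR adjusted p = 3.86e-11). In the other barcodes Hoxa10 was the single targeted gene with both mutant libraries below both wildtype libraries, at 96.3 and 129 CPM in mutant against 156 and 177 CPM in wildtype. Hoxd11 had 120 and 199 CPM in mutant against 77.1 and 54.3 CPM in wildtype other barcodes, and Hoxa9, Hoxd9 and Hoxd10 were also no lower in mutant, while Hoxa11 overlapped. The labels do not say what the alleles remove, so these counts do not check the genotype labels. Cdh5, an endothelial cadherin, was at 0 in all 4 macrophage sums. Of 12 neutrophil genes 6 were at 0 and 2 were higher, Prtn3 and Cxcr2, but 48 of the 64 UMIs of this list came from 1 barcode with 3 or 4 selecting UMIs. Mpo, a granule enzyme of early granulocytes, had 0 and 4.96 CPM in mutant and 0 and 131 CPM in wildtype macrophages, so nearly all of it came from wildtype 2. Mast cell genes were at 0 for 7 of 10, and 9 of 14 lymphoid and dendritic genes were at 0. In the megakaryocyte list 6 of 9 genes were at 0, while Pf4, which fetal macrophages also express, had 2314 and 793 CPM in mutant and 2796 and 1480 CPM in wildtype macrophages, against 85.6 and 5.84 CPM in mutant and 6.41 and 9.30 CPM in wildtype other barcodes (log2 fold change 7.005, SE 1.13, edgeR adjusted p = 0.0355).

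Against endothelial barcodes, defined by 3 or more UMIs over Pecam1, Cdh5, Kdr, Tie1, Emcn and Cldn5, 18 of the 19 identity genes were higher in macrophage barcodes. Endothelial cells also scavenge, and they lie next to macrophages in tissue. Of 3629 genes tested, 591 were higher (16.3%) and 453 lower (12.5%) in macrophages, 28.8% in all, and without mutant 1 these were 944 and 790. Lyz2, lysozyme, had 2436 and 1665 CPM in mutant and 1022 and 675 CPM in wildtype macrophages, against a mean of 0.098 CPM in endothelial barcodes (log2 fold change 11.84, SE 0.32, edgeR adjusted p = 2.42e-29), and it led the named genes, followed by Ly86, Fcgr1, Ms4a6c and Ccl24. Of 27 lysosomal genes 22 were tested and all 22 were higher. Stab1, which endothelium also expresses, was higher in macrophages by 3.83 on the log2 scale. Genes on which macrophage and endothelial barcodes were near each other were Igf1, with means of 294 CPM in macrophages and 284 CPM in endothelial barcodes (log2 fold change -0.07, SE 0.34, edgeR adjusted p = 0.902), and H2-D1, with 370 CPM in macrophages and 229 CPM in endothelial barcodes (log2 fold change 0.61, SE 0.33, edgeR adjusted p = 0.229). Lyve1, the hyaluronan receptor of lymphatic vessels and of some macrophages, had 731 and 79.3 CPM in mutant and 789 and 296 CPM in wildtype macrophages, against a mean of 31.8 CPM in endothelial barcodes (log2 fold change 3.56, SE 1.15, edgeR adjusted p = 0.128), and it did not pass.

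The members were not uniform. To compare them at equal depth, each barcode was thinned to 1000 UMIs, which left out 25 shallower members and kept 150. Lyve1 was then detected in 30 members, F13a1, a transglutaminase chain of resident macrophages, in 46, Pf4 in 80 and Mrc1 in 90. In 10432 other barcodes thinned alike the same genes were detected in 0.422%, 0.240%, 0.498% and 0.192%. Of the 30 members with a Lyve1 UMI, 19 also had F13a1 (63.3%) and 28 had Pf4 (93.3%), whereas among the 120 without Lyve1 these were 27 (22.5%) and 52 (43.3%). Ccr2, the receptor that brings in monocytes, was seen in 13 of the 150 members. Lyve1 was in 1 of these 13 (7.69%) and in 29 of the 137 others (21.2%), a contrast that rests on few barcodes. Without thinning, 31 of 175 members had Ccr2, and Lyve1 was in 1 of these 31 (3.23%) and in 45 of the 144 others (31.3%), although the members with Ccr2 were deeper, with a median of 3767 UMIs against 2186 UMIs. These shares pool 4 libraries whose Ccr2 and Lyve1 levels differ, and members of 1 library share its depth and free RNA. Ly6c2, a gene of circulating monocytes, was in 1 of 175 members (0.571%) and in 0.728% of other barcodes, a background level.

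No difference between the genotypes in the share of macrophages was detectable. They were 2.11% of barcodes in mutant 1 (exact 95% Clopper-Pearson interval 1.26% to 3.31%) and 1.40% in mutant 2 (1.08% to 1.79%), against 1.54% in wildtype 1 (1.04% to 2.19%) and 1.25% in wildtype 2 (0.962% to 1.60%). Intervals cover counting error only. The mean was 1.76% ± 0.499 in mutant and 1.39% ± 0.205 in wildtype libraries (SD, n = 2 each), a difference of 0.363 percentage points (exact two-sided permutation p = 0.667, where 2 against 2 cannot give less than 0.3333). Without mutant 1 the difference was 0.00981 points and without mutant 2 it was 0.716 points, so its size rests on the smallest library.

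Within macrophages no gene differed between the genotypes past the test. Of 2936 genes tested with edgeR on the 4 library sums, 0 passed in either direction (0%), the smallest adjusted p was 0.503, and DESeq2 also called 0. At an unadjusted p below 0.05 there were 115 higher and 44 lower genes in mutant macrophages with edgeR, 5.42% of those tested, and 66 genes in either direction with DESeq2. Leaving out 1 library, where the lone library of its genotype was assumed to vary like the other pair, gave between 1 and 9 higher and between 0 and 6 lower genes. In simulated counts of this design the test found 65.0% of 4-fold changes and 0% of 2-fold changes, so changes of 2-fold were not detectable at this depth. The simulated spread between libraries was smaller than the one fitted here, a biological coefficient of variation of 0.308. The 65.0% is therefore likely too high for these data. Genes whose mutant and wildtype levels did not overlap were 511 on the higher side (17.4%) and 528 on the lower side (18.0%). None of the genes whose values follow passed. Most were taken for a small unadjusted p in their list, and others, such as F13a1 and Fos, after their values were seen.

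Trem2, a receptor for lipids and debris that signals through Tyrobp, had 345 and 243 CPM in mutant macrophages, against 62.7 and 72.8 CPM in wildtype macrophages. The groups did not overlap (log2 fold change 2.02, SE 0.54, edgeR unadjusted p = 0.000787, adjusted p = 0.503). Thinned to 1000 UMIs, Trem2 was detected in 23.5% and 23.6% of mutant members and in 14.8% and 11.8% of wildtype members. At 500 UMIs the shares overlapped, at 5.56% and 18.8% of mutant and 6.67% and 7.94% of wildtype members. Apoe, with the levels given above, had a log2 fold change of 1.18 (SE 0.37, edgeR adjusted p = 0.503). Gas6, a bridging ligand between dying cells and their receptors, had 792 and 382 CPM in mutant and 224 and 170 CPM in wildtype macrophages. Of 9 lipid handling genes tested, all 9 had a log2 fold change above 0, with a median of 1.18, and 7 did not overlap on the higher side. Over all genes tested the median was -0.03, 48.1% lay above 0 and 17.4% did not overlap on the higher side. Genes of a list share the same library sums and are not independent.

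Lysosomal genes lay on the same side. All 22 tested had a log2 fold change above 0, with a median of 0.52, and 16 did not overlap between the genotypes, where 17.4% of all genes did so on the higher side. Ctsd, cathepsin D, had 1624 and 1502 CPM in mutant macrophages, against 690 and 723 CPM in wildtype macrophages. The mutant libraries were the 2 higher ones, and the gene did not pass (log2 fold change 1.13, SE 0.41, edgeR adjusted p = 0.600). With DESeq2's scaling all 22 lysosomal and all 9 lipid handling genes also lay above 0, with medians of 0.53 and 1.20, and without mutant 1 it was 21 of 24 and 9 of 11, with medians of 0.32 and 0.83. The interaction fit described below called no gene of either list, so no different genotype effect in macrophages than in other barcodes was shown for them.

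**Figure D4:**
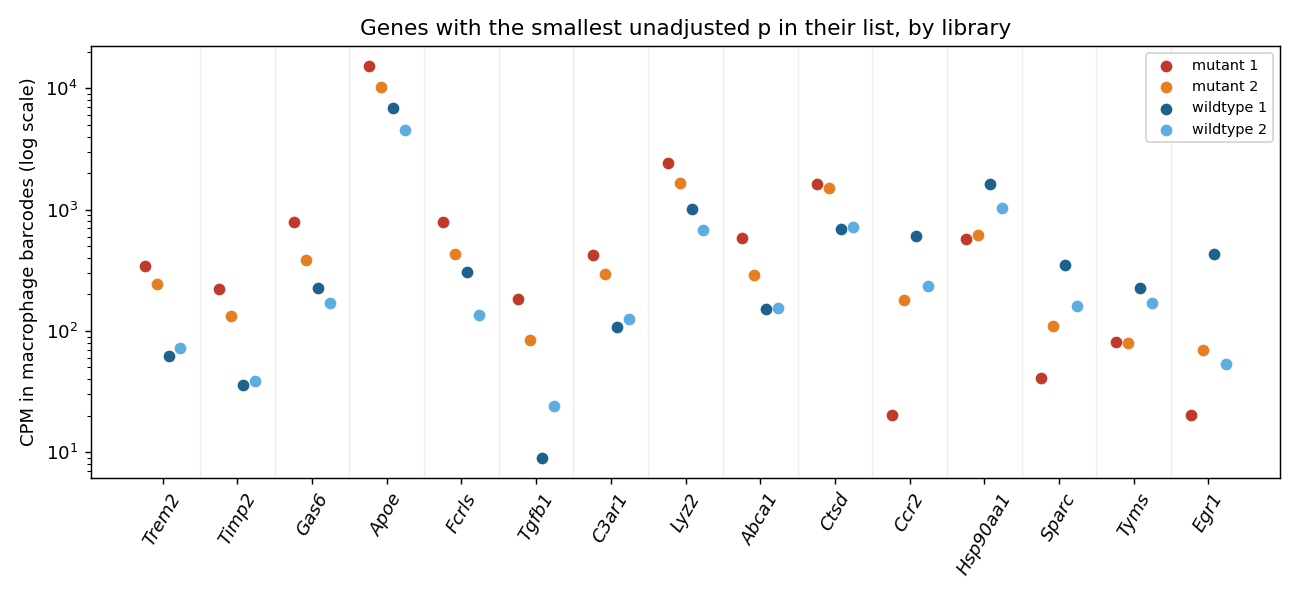
CPM (log scale) in macrophage barcodes of each library for list genes with the smallest unadjusted p between the genotypes. The first 10 genes have both mutant libraries above both wildtype libraries, the 4 genes from Ccr2 to Tyms have both below, and Egr1 overlaps. No gene passed the test.

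Genes on the lower side included Ccr2, with 20.3 and 178 CPM in mutant macrophages, against 609 and 233 CPM in wildtype macrophages (log2 fold change -1.71, SE 0.59, edgeR adjusted p = 0.567). Without mutant 2 it passed, at -4.25 and an edgeR adjusted p of 0.0271, but the mutant side was then mutant 1 alone, with 1 Ccr2 UMI, and the spread came from the wildtype pair. At 1000 UMIs it was detected in 0% and 5.45% of mutant members and in 14.8% and 11.8% of wildtype members, and at 2000 UMIs, in 8.33% and 22.2% against 33.3% and 19.4%, the shares overlapped. F13a1 had 731 and 268 CPM in mutant and 1425 and 563 CPM in wildtype macrophages, which overlap, while its detection at 1000 UMIs was 17.6% and 21.8% in mutant and 51.9% and 33.3% in wildtype members. At 2000 UMIs this was 41.7% and 19.4% in mutant and 83.3% and 38.9% in wildtype members, which overlap. Hsp90aa1, a chaperone, had 568 and 620 CPM in mutant and 1640 and 1039 CPM in wildtype macrophages, and none of 7 heat shock genes tested lay above 0. Among 9 hypoxia and glycolysis genes 1 lay above 0, with a median of -0.77. The immediate early genes, which dissociation of a tissue can induce, had a median of -0.65 over 9 tested, and without wildtype 1 this median was 0.51. Fos had 20.3 and 188 CPM in mutant and 600.5 and 136 CPM in wildtype macrophages, with wildtype 1 the highest.

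Some other features of the libraries moved with the genotype as well. Malat1, a nuclear RNA whose share is a sign of RNA quality, had 7409 and 7638 CPM in mutant macrophages, against 4051 and 2116 CPM in wildtype macrophages, and in the other barcodes 4577 and 6575 CPM in mutant, against 2285 and 1687 CPM in wildtype libraries. The list of 4 RNA quality genes had all 4 log2 fold changes above 0, but of these only Malat1 did not overlap between the genotypes. In macrophages mt-Rnr2 had 3694.5 and 23316 CPM in mutant against 8317 and 8731 CPM in wildtype libraries. Xist, which female cells express, had 528 and 183 CPM in mutant macrophages, against 0 and 72.8 CPM in wildtype macrophages, and in the other barcodes 582 and 276 CPM in mutant, against 0.736 and 144 CPM in wildtype libraries. Haemoglobin RNA followed wildtype 2, with Hba-a1 at 60.9 and 218 CPM in mutant macrophages, against 89.6 and 5378 CPM in wildtype macrophages. Median depth per macrophage barcode was 2353.5 and 2220 UMIs in the mutant libraries and 2604 and 2501 UMIs in the wildtype libraries. The part of these differences in the values above was not tested.

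Cell cycle genes were found in most members. At 1000 UMIs, 58.8% and 83.6% of mutant members had a UMI of an S or G2/M phase gene, against 92.6% and 96.1% of wildtype members, a difference of -23.1 percentage points (exact two-sided permutation p = 0.3333, the smallest that 2 against 2 can give). At 2000 UMIs the difference was -8.33 percentage points (exact two-sided permutation p = 0.667). The other barcodes showed the same order at 1000 UMIs, with 77.0% and 83.9% in mutant against 90.3% and 93.6% in wildtype libraries. Without thinning the members' shares were 83.3% and 92.2% in mutant against 93.3% and 96.8% in wildtype libraries. Mki67 was detected at 1000 UMIs in 11.8% and 23.6% of mutant members, against 18.5% and 11.8% of wildtype members, which overlap. Against other barcodes none of 20 G2 and M phase genes and 2 of 20 S phase genes, both lower, passed the test. Over all genes tested 13.4% were lower.

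A genotype effect that differed between macrophages and the other barcodes of the same libraries was found for 5 of 12063 genes (0.0414%), all lower, by edgeR's test of the interaction. DESeq2 called 0 of them, with 147 genes at an unadjusted p below 0.05 against 302 with edgeR. In this fit 5% of simulated 4-fold differences were found. For Lyve1 the interaction was -3.18 on the log2 scale (SE 0.59, edgeR adjusted p = 0.000813). Its levels in macrophages, given above, overlapped between the genotypes, with mutant 2 lowest, whereas other barcodes had 3.99 and 13.5 CPM in mutant and 2.94 and 1.54 CPM in wildtype libraries. Col1a1, a fibrillar collagen of stroma, had 0 and 84.3 CPM in mutant and 143 and 146 CPM in wildtype macrophages, against 780 and 651 CPM in mutant and 181 and 179 CPM in wildtype other barcodes (interaction -3.20, SE 0.68, edgeR adjusted p = 0.0118). Col3a1, whose macrophage levels overlapped between the genotypes, had 0 and 144 CPM in mutant and 332 and 102 CPM in wildtype macrophages, against 963 and 1367 CPM in mutant and 459 and 221 CPM in wildtype other barcodes. Igfbp3 and Sdpr were at 0 and 4.96 CPM each in mutant macrophages, near the limit of 1 UMI in mutant 2. The 5 genes were higher in the other mutant barcodes than in the other wildtype barcodes. The part of free RNA from those cells in the macrophage values was not tested. The other barcodes also mix cell types in unlike shares. Thinned to 500 UMIs, 59.3% and 61.6% of them had stroma markers in mutant, against 35.3% and 29.1% in wildtype libraries. Nephron progenitor markers went the other way, at 7.19% and 10.6% against 20.8% and 20.6%. The part of this mix in the interactions was not tested. The number of genes called was 13 without mutant 1, 71 without mutant 2, 1 without wildtype 1 and 1 without wildtype 2, on the lower side in each case, and on the higher side it was 6 without mutant 1 and 5 without mutant 2. Without mutant 2 the interaction of Lyve1 was -0.71 and did not pass. With 10 or more selecting UMIs per barcode, the interaction of Col1a1 was -0.80 and that of Col3a1 -0.11, and neither passed. Without wildtype 1 Igfbp3 had an interaction of 5.80.

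**Figure D5:**
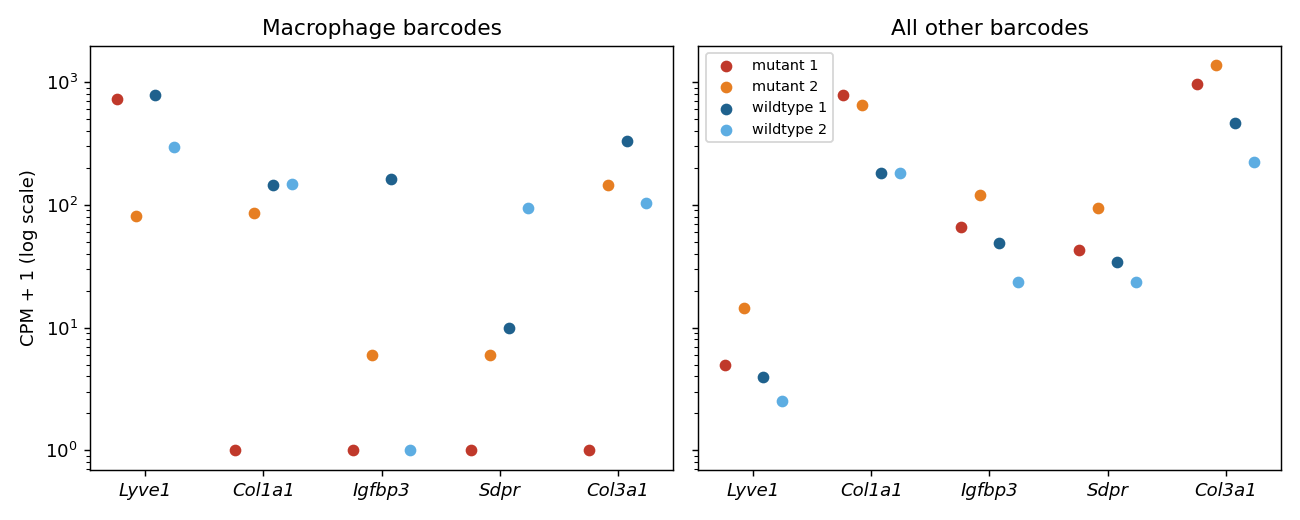
CPM plus 1 (log scale) of the 5 genes past the interaction test, in macrophage barcodes (left) and all other barcodes (right) of each library. In other barcodes both mutant libraries lie above both wildtype libraries for all 5 genes, and in macrophages mutant 1 is at 0 for 4 of them.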

How the data were processed

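Counts of UMIs per gene and barcode, 1 table per library, were used as the authors deposited them. Alignment with Bowtie2 2.2.7 and the build mm10 are named in the submitters' processing notes. How UMIs were collapsed, whether strand was used and the annotation are not given in the sources used here, so overlapping and antisense genes may share reads. The members and the 39 gene lists were chosen with earlier results of these data known. Raw counts were summed per library over macrophage barcodes, all other barcodes or endothelial barcodes. They were tested with edgeR 4.0.16 (TMM, filterByExpr, robust quasi-likelihood fit, limma 3.58.1) in R 4.3.3, with Benjamini-Hochberg adjustment over all genes tested and a threshold of 0.05. The SE given with a log2 fold change is its absolute value divided by the square root of edgeR's F statistic. It is not a separately fitted standard error. DESeq2 1.42.0 was an alternative. In edgeR's fits the spread shared over genes outweighed a gene's own, with 30.1 prior against 2 residual degrees of freedom between the genotypes. Against other barcodes and for the interaction the prior was infinite at the median gene, so only the shared spread counted there. The selecting genes were left out of the tests against other and endothelial barcodes. Library totals were 3572346 and 21350698 UMIs in mutant and 9817486 and 24834658 UMIs in wildtype libraries. Doublets were not removed. As an alternative, the 5% of each library's barcodes with the highest Scrublet scores (scanpy 1.11.5) were left out. Named genes were the 20 leading by fold in favour of macrophages, list members past the test, the 2 list members with the smallest p where fewer passed, all genes past the interaction test, and the targeted and selecting genes. Genes named for being at or near 0, for standing near the level of another class, or for their detection per barcode (F13a1, Mki67, Fos, Malat1 and Itgam among them) were chosen after their values were seen. Gene positions came from GENCODE M21. The tests were checked on simulated counts with a fixed spread for all genes, which was below the spread fitted between the genotypes. Shares were computed in Python 3.11.15 with scipy 1.17.1. Some list genes are counted in their lists but not reported here by name.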

Additional observations from a re-analysis of the deposited data

Results flagged for a closer look

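The genotype effect in macrophage barcodes minus that in the other barcodes passed edgeR's interaction test for 5 genes, all below 0 on the log2 scale. It was -3.18 for Lyve1 (edgeR adjusted p = 0.000813), -3.20 for Col1a1, -2.95 for Col3a1, -5.43 for Igfbp3 and -5.46 for Sdpr. Col1a1, Sdpr and Igfbp3 each had an adjusted p of 0.0118 and Col3a1 of 0.0205. Sdpr had 0 and 4.96 CPM in mutant and 8.96 and 92.2 CPM in wildtype macrophages, against 41.7 and 93.5 CPM in mutant and 33.1 and 22.4 CPM in wildtype other barcodes. Igfbp3 had 0 and 4.96 CPM in mutant and 161 and 0 CPM in wildtype macrophages, so its only other macrophage UMIs came from wildtype 1. DESeq2 called none of the 5. Stroma markers were detected in more of the other barcodes in mutant than in wildtype libraries, and the part of this was not tested.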

How the results depend on the processing

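Without a filter on low counts, 2785 genes were lower in macrophages than in other barcodes, and 917 were higher and 1190 lower than in endothelial barcodes. Leaving out 1 library gave 899 to 1556 genes lower than in other barcodes, and 502 to 944 higher and 393 to 790 lower than in endothelial barcodes. All 20 genes named by fold kept their direction and their call in each of these comparisons under every alternative run. Between the genotypes within macrophages, where 0 genes passed, 3 were higher with at least 10 selecting UMIs and 3 with at least 1000 genes per barcode (Apoc1, mt-Atp8 and Xist in both), and leaving out 1 library gave 1 to 9 higher and 0 to 6 lower. A lone library left in a genotype was assumed to vary like the other pair. The replicate block gave 3 lower genes, Hba-a1, Hba-a2 and Hbb-bs. Same-numbered libraries did not deviate together (r = 0.013 across 2936 genes, which are not independent), so no pairing by number was seen. This check cannot show that they shared no litter or preparation, which the labels do not state. For the interaction, 1 gene was higher with at least 1000 genes per barcode. On the lower side DESeq2 gave 0, the stricter rule of 10 selecting UMIs 1, leaving out likely doublets 3, and dropping the mitochondrial limit 0. Leaving out 1 library gave 0 to 6 higher and 1 to 71 lower, and for Igfbp3 its value ran from -12.36 without mutant 2 to 5.80 without wildtype 1.

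Between the genotypes the log2 fold change of some list genes, none of which passed, changed sign. Leaving out 1 library gave -2.75 to 0.22 for Ccl2, -5.53 to 0.92 for Hba-a1, -5.38 to 0.90 for Hba-a2, -0.91 to 1.07 for Ifi204, -1.001 to 0.23 for Ifitm3, -2.77 to 0.48 for Lyve1, -1.47 to 0.14 for Pf4, -1.89 to 0.085 for Tfrc, -0.15 to 1.66 for Trf and -1.20 to 1.39 for mt-Rnr2. Cd14 was 0.002 with at least 10 selecting UMIs. Ifi204 was -0.16 with DESeq2, -0.038 with no filter, -0.37 with at least 1000 genes and -0.025 with no mitochondrial limit. The cause of these changes was not tested. The share of members with cell cycle UMIs without thinning was an alternative chosen after seeing the data. With 2 libraries a genotype, and 18 macrophage barcodes in mutant 1, 2-fold changes could not be found.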
